A study of Mus musculus with 32 samples.

Results

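The mRNA response of MIN6 cells to sustained high glucose was compared in the RNA libraries of highest depth. MIN6 is a mouse insulinoma line that releases insulin when glucose rises, and the cells were wildtype and kept for 24 hours in either 25 or 5.5 mM glucose. The comparison covers 11 of the 32 samples of the study, namely all 8 RNA libraries at 25 mM and 3 of the 8 RNA libraries at 5.5 mM. The members at 5.5 mM were chosen by their column sum, which had to exceed 10000000 counts; the lowest sum kept was 13795978 and the highest left out was 6907849. All cultures, at either concentration, were briefly exposed to cycloheximide, which arrests ribosomes on mRNA, and libraries were made from polyadenylated RNA. Stock cultures of this line are grown in 25 mM glucose, so the 5.5 mM cultures were the ones whose medium was changed to a lower concentration. Libraries were made in 2 batches. The first batch held 25 mM replicates 1 to 4 with 5.5 mM replicates 1 and 3, and the second held 25 mM replicates 5 to 8 with 5.5 mM replicate 5. The labels call the samples biological replicates of a single cell line. Which culture is high or low in depth was thus fixed by the choice of members and is not a result.

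Glucose entering a β cell is phosphorylated and oxidised, and the ATP made closes potassium channels, opens calcium channels and releases insulin granules. Over hours, glucose metabolites also act on transcription through ChREBP and MondoA, factors that bind E-box-like sites with their partner Mlx. Calcium and cAMP switch on immediate early genes and the ERK kinase cascade. Proinsulin is folded in the ER and carried by COPII vesicles to the Golgi, and 2 stress programmes watch over this traffic: the unfolded protein response, with XBP1 and ATF6, and the integrated stress response, in which ATF4 turns on genes for amino acid supply, tRNA charging and cell death.

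Total counts were 13795978 to 17542565 at 5.5 mM and 16423766 to 33623502 at 25 mM. The β cell markers Ins1, Ins2, Iapp, Pdx1 and Nkx6-1 were detected in every library. Of 29 markers of other pancreatic, stromal, endothelial and blood cell types, 22 stayed under 1 CPM (counts per 1000000) in all 11 libraries and 6 were at 0 throughout, among them the acinar enzymes Prss1, Prss2 and Cpa1. The 29 markers summed to 672 to 798 CPM at 5.5 mM, against 815 to 1039 CPM at 25 mM, most of it from the ductal keratin Krt7 (482 to 711 CPM over all libraries) and from Gcg (50.7 to 330.5 CPM), and their part in the results was not tested. The 3 libraries at 5.5 mM were not alike. Across genes, the median correlation of log2 CPM with the 25 mM libraries was 0.982 for replicate 3, 0.907 for replicate 1 and 0.868 for replicate 5, against 0.981 to 0.992 among the 25 mM libraries. Replicate 3 lay closest to the 25 mM libraries, and levels are therefore given for each 5.5 mM library. The transcript Lars2, whose gene model can collect reads of ribosomal RNA, stood at 2360, 656 and 7287 CPM before scaling in replicates 1, 3 and 5 at 5.5 mM and at 426 to 2001 CPM at 25 mM. The part of this signal in the results was not tested.

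Sustained high glucose was accompanied by broad differences in the transcriptome. In the following, levels are CPM after TMM scaling, changes are the log2 ratio of 25 over 5.5 mM ± SE, and a gene is called when the quasi-likelihood test of edgeR, with a term for batch, gave an adjusted p under 0.01. Of 12918 genes tested, 3822 were called (29.6%), with 1342 higher (10.4%) and 2480 lower (19.2%) at 25 mM. At least 2-fold changes were found for 668 of the higher and 1330 of the lower genes. The median over all genes tested was −0.0031, and library size scaling without TMM moved it to 0.0845. Levels at 5.5 and 25 mM did not overlap for 3516 genes (27.2% of those tested), of which 2671 were called. All 3822 called genes had the same sign within each batch, but within the first batch alone (4 versus 2 libraries) edgeR called 6 genes, with 4276 at an unadjusted p under 0.05. The second batch alone (4 libraries versus the single replicate 5) gave 7685 calls.

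Whether a gene was called often depended on single 5.5 mM libraries. Without replicate 3, 4019 genes were higher and 3883 lower. Without replicate 1 the counts were 447 and 912, and without replicate 5 they were 385 and 401. Of the called genes tested again, 0 turned their sign in any of these 3 fits. Genes at an unadjusted p under 0.05 numbered 6823 without replicate 1 and 5707 without replicate 5, against 8013 with all 11 libraries. Leaving out 25 mM replicate 1, 2, 4, 5, 6 or 8 also moved the higher count by more than 1.5 times, to 843 to 892. A smaller group of 294 higher (2.28% of genes tested) and 329 lower genes (2.55%) was called with all 11 libraries and again when each of the 3 libraries at 5.5 mM was left out. These 623 genes are called stable in the following, and for 589 of them the levels at the 2 glucose concentrations did not overlap. Among called genes, replicate 3 lay at a median of 0.388 of the distance of replicates 1 and 5 from the 25 mM mean for higher genes and 0.29 for lower genes. For the stable genes these medians were 0.677 and 0.509. Being called without replicate 1 and without replicate 5 favours genes whose replicate 3 lies away from 25 mM. The larger medians and the lack of overlap thus follow in part from how the stable genes were chosen.

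**Figure D1:**
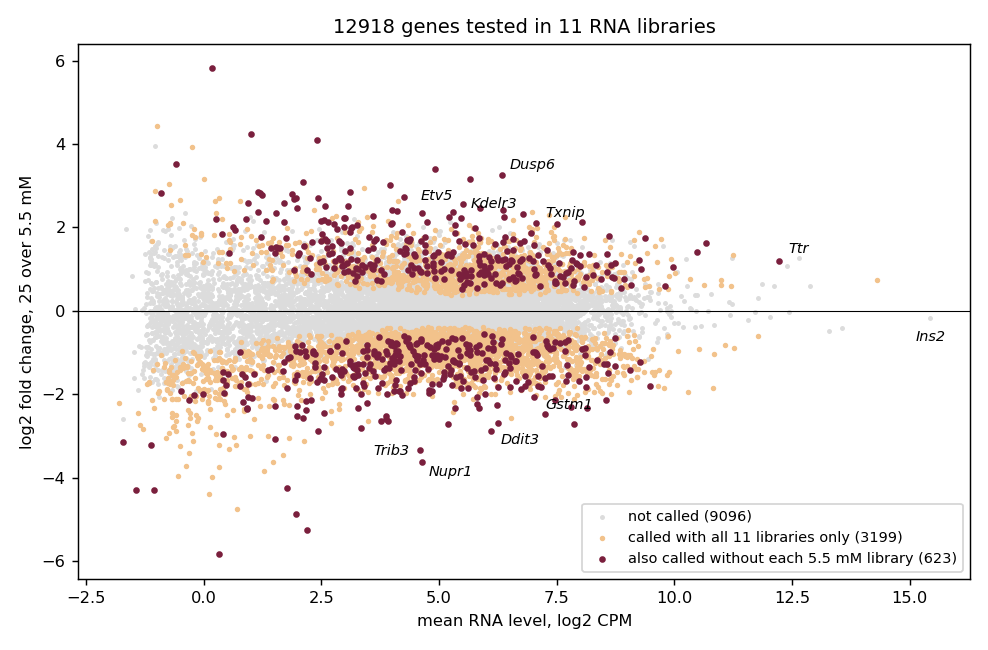
Each point is 1 of 12918 genes, with its mean RNA level in log2 CPM on the horizontal axis and its log2 fold change (25 over 5.5 mM) on the vertical axis. Grey genes were not called, orange genes were called only with all 11 libraries, and the 623 dark genes were also called without each 5.5 mM library in turn.

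Genes known to respond to glucose metabolites moved in both directions. Txnip, an arrestin-fold protein that binds thioredoxin and is a classical ChREBP and MondoA target, was at 47.5, 56.1 and 21.6 CPM in replicates 1, 3 and 5 at 5.5 mM and at 134 to 188 (median 172) at 25 mM. Its paralog Arrdc4 was at 9.26, 11.9 and 14.6 CPM and 21.6 to 50.9 (median 35.6) CPM. The 25 mM libraries of Arrdc4 split by batch, at 21.6 to 24.9 CPM in the first and 46.2 to 50.9 CPM in the second. No 5.5 mM library reached the 25 mM range for either gene. Txnip rose by 2.11 ± 0.24 (adjusted p = 0.000255) and Arrdc4 by 1.35 ± 0.15 (adjusted p = 0.000236), and both were stable. Khk, the ketohexokinase that phosphorylates fructose, changed the other way: it was at 53.6, 22.1 and 53.7 CPM at 5.5 mM and 9.90 to 14.5 (median 11.9) CPM at 25 mM (−1.84 ± 0.22, adjusted p = 0.0003). Mlxipl, which encodes ChREBP itself, was likewise lower (−1.27 ± 0.19, adjusted p = 0.000723). Of 29 members tested in the list of ChREBP and MondoA targets and partners, 6 were higher and 5 lower (20.7% and 17.2%, against 10.4% and 19.2% of all genes), with a median of 0.079, and 2 in each direction were stable. Without replicate 1 at 5.5 mM 2 were higher and 4 lower, and without replicate 5 there were 2 and 2. Txnip and Arrdc4 rose in a list whose share of lower members stood near that of all genes. The palindromic E-box CACGTG, the core of the ChREBP site, lay in the promoters of 5 of the 22 members with a promoter sequence (22.7%). Of the 10152 tested genes with a promoter sequence, 11.6% held it. Among the other lists searched, the share ran from 5.26% for ERK feedback genes to 29.2% for immediate early genes, with 20.5% in the ATF4 list. The share of 22.7% was thus not particular to this list. A promoter here is the RefSeq sequence (GRCm38.p6) from 250 bases before to 50 after the gene's start. The stretches around the E-box of 3 members are shown, 5′ to 3′ on the gene's strand with the motif in capitals, because Arrdc4 rose while Khk and Mlxipl fell.
Arrdc4 (chr7:68749406-68749451, gene on the minus strand): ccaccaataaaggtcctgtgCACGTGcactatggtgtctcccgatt
Khk (chr5:30921468-30921513, gene on the plus strand): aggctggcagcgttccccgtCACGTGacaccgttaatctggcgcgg
Mlxipl (chr5:135089772-135089817, gene on the plus strand): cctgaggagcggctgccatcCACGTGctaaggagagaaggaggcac

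The median gene of the ERK feedback loop was higher at 25 mM than in each of the 3 libraries at 5.5 mM. ERK activity induces phosphatases and adaptors that dampen it and ETS factors that carry its signal. Dusp6, the phosphatase that dephosphorylates ERK, was at 5.88, 14.9 and 8.64 CPM at 5.5 mM and 72.9 to 154 (median 101.7) CPM at 25 mM. Its 25 mM libraries were at 72.9 to 85.0 CPM in the first batch and 118 to 154 CPM in the second. Etv5, an ETS transcription factor, was at 6.56, 13.4 and 9.88 and 54.7 to 64.9 (median 58.1) CPM, and its relative Etv4 at 3.65, 3.45 and 4.59 and 13.2 to 26.5 (median 21.6) CPM. In each case the highest 5.5 mM library lay far below the lowest 25 mM library. The changes were 3.26 ± 0.31 for Dusp6 (adjusted p = 8.46e-05), 2.57 ± 0.20 for Etv5 (adjusted p = 4.75e-05) and 2.42 ± 0.22 for Etv4 (adjusted p = 8.45e-05). Shc4, a Shc-family adaptor of receptor tyrosine kinases, went from 1.22, 2.44 and 1.06 CPM to 7.19 to 14.1 (median 10.7) CPM (2.86 ± 0.25). Dusp4, a nuclear phosphatase of the same family as Dusp6, went from 14.0, 44.2 and 27.0 CPM to 121 to 161 (median 138) CPM (2.33 ± 0.28, adjusted p = 0.000307). Of 28 members tested, 11 were higher and 3 lower (39.3% and 10.7%), with a median of 0.86, and 10 of the higher and 1 of the lower members were stable. The 3 lower members, named after their values were seen, were Phlda1 (−2.06), a pleckstrin-homology protein, Mapk3 (−0.68), which encodes ERK1, and Ccnd1 (−1.03), the G1 cyclin D1. Relative to the 25 mM mean, the median member stood at −1.0, −0.62 and −0.68 on the log2 scale in replicates 1, 3 and 5. Replicate 3 thus differed from 25 mM in the same direction as the other 5.5 mM libraries. The ETS motif CCGGAAGT, searched on both strands, was in the promoters of 0 of 19 members and of 9.02% of all tested genes. In the lists of ER-to-Golgi transport and cytosolic ribosomal proteins its share was 15.8% and 19.7%.

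**Figure D2:**
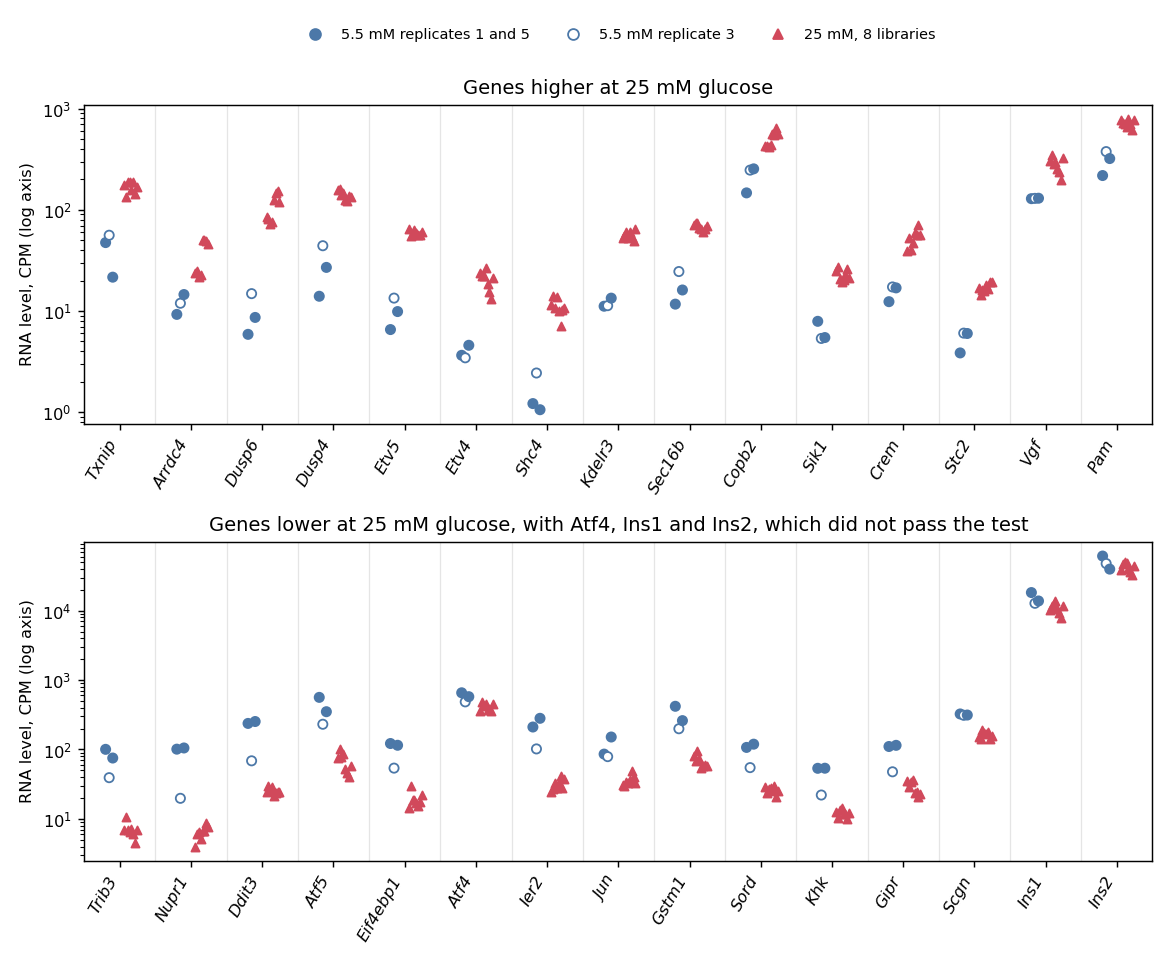
RNA level in CPM on a log axis for 15 genes higher at 25 mM (top) and 15 further genes (bottom), with 1 symbol per library: blue circles for the 3 libraries at 5.5 mM (replicate 3 open) and red triangles for the 8 at 25 mM. The groups stand apart for Dusp6, Etv5, Kdelr3, Trib3 and Scgn, replicate 3 is the 5.5 mM library nearest to 25 mM for Nupr1, Ddit3 and Khk, and Ins1 and Ins2 overlap.

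Immediate early genes differed in direction. Ier2, a nuclear protein induced within minutes by growth signals, was at 211, 101.9 and 281 CPM at 5.5 mM and 24.1 to 41.2 (median 30.5) CPM at 25 mM (−2.69 ± 0.20, adjusted p = 3.33e-05). Jun, a subunit of the AP-1 factor, was at 85.8, 78.9 and 151 and 29.8 to 49.0 (median 33.9) CPM (−1.59 ± 0.14, adjusted p = 8.45e-05). Both fell, with no overlap between the groups. Sik1, a kinase that dampens CREB signalling, and Crem, a CREB-family factor, rose. Sik1 was at 7.91, 5.36 and 5.47 CPM and then 19.5 to 27.5 (median 22.0) CPM (1.89 ± 0.18), and Crem was at 12.4, 17.3 and 16.9 CPM and then 39.5 to 70.8 (median 54.5) CPM (1.68 ± 0.16, adjusted p = 9.2e-05). All 4 genes were stable. Over the list, 6 of 30 members were higher and 12 lower (20.0% and 40.0%), with 4 and 7 stable and a median of −0.32. Among the lower members, named after their values were seen, were the AP-1 subunits Fos (−1.42), Junb (−1.19) and Jund (−1.06) and the zinc finger factor Egr1 (−1.05), while Fosl2 (1.41) and the nuclear receptor Nr4a1 (1.23) were higher. The CRE motif TGACGTCA, a palindrome bound by CREB-family factors, was in the promoters of 3 of 24 members (12.5%), Btg2, Dusp1 and Maff. It was in 3.69% of the promoters of all tested genes.

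The median gene of the integrated stress response was lower at 25 mM than in each of the 3 libraries at 5.5 mM. Trib3, a pseudokinase induced by ATF4 and CHOP, was at 100.5, 39.3 and 75.3 CPM in replicates 1, 3 and 5 at 5.5 mM and at 4.56 to 10.7 (median 6.96) CPM at 25 mM. Ddit3, which encodes CHOP, was at 237, 68.6 and 253 and 21.1 to 29.4 (median 24.4) CPM. Nupr1, a small chromatin protein of the stress response, was at 101, 19.8 and 105 and 3.98 to 8.76 (median 6.51) CPM. All 3 genes were lower in every 25 mM library than in any 5.5 mM library, and replicate 3 lay between the other 5.5 mM libraries and the 25 mM range. The changes were −3.34 ± 0.24 (adjusted p = 3.33e-05) for Trib3, −2.89 ± 0.27 (adjusted p = 8.46e-05) for Ddit3 and −3.61 ± 0.33 (adjusted p = 8.45e-05) for Nupr1. Atf5, a relative of ATF4 that responds to the same pathway, was at 564, 231 and 350.3 CPM at 5.5 mM and 40.5 to 103 (median 66.6) CPM at 25 mM (−2.47 ± 0.22). Eif4ebp1, the repressor of cap-dependent translation, was at 122, 53.9 and 115 CPM and 14.5 to 29.5 (median 17.98) CPM (−2.33 ± 0.24). Atf4 mRNA itself was at 656, 485 and 577 CPM and 358 to 483 (median 405) CPM, apart between the groups but not called (−0.46 ± 0.14, adjusted p = 0.0144), and ATF4 is regulated largely at the level of its translation. Its call depended on 1 library, since the adjusted p without 5.5 mM replicate 3 was 0.00166.

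Of 49 members tested in the ATF4 list, 3 were higher and 25 lower (6.12% and 51.0%, against 10.4% and 19.2% of all genes), with a median of −0.59, and 1 and 16 of them were stable. The median member stood 0.68, 0.53 and 0.55 above the 25 mM mean on the log2 scale in replicates 1, 3 and 5. The lower members covered the arms of the pathway: the amino acid and folate enzymes Shmt2 (−1.21), Mthfd2 (−0.89) and Psat1 (−0.51), the tRNA synthetases Sars (−1.35), Aars (−0.88), Eprs (−1.13) and Mars (−0.59), the amino acid transporters Slc1a4 (−1.17) and Slc7a5 (−0.51), and Chac1 (−1.52), which degrades glutathione. These examples were picked by role after their values were seen. The 3 higher members were Stc2 (1.65), a secreted glycoprotein, Pycr1 (1.41), the last enzyme of proline synthesis, and Ero1l (1.35), an oxidase of ER disulfide formation. Stc2 was at 3.85, 6.05 and 6.00 CPM at 5.5 mM and 14.6 to 19.4 (median 16.7) CPM at 25 mM (adjusted p = 8.45e-05), a direction that turned when the 5 left-out libraries at 5.5 mM were added (−0.36). Asns, the asparagine synthetase often used as a marker of this pathway, did not pass the test (−0.43 ± 0.13, adjusted p = 0.0154).

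The C/EBP-ATF response element (CARE), searched as TGATGNAAT on both strands, was looked for in the promoters of this list. It was found in 5 of the 39 members with a promoter sequence (12.8%). The share was 0.493% of the tested genes and 1.08% of all 27025 genes of the promoter table. The list was written from general knowledge of the pathway, so its share describes the list and is no evidence on the response to glucose. Stretches of 4 of these members are shown, again 5′ to 3′ on the gene's strand with the match in capitals, since they carry the same element while their mRNAs differed in direction: Nupr1 and Aars fell, Pycr1 rose and Gars, the glycyl-tRNA synthetase, did not pass the test (−0.19 ± 0.099, adjusted p = 0.113).
Nupr1 (chr7:126625553-126625601, gene on the minus strand): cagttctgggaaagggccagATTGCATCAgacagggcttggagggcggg
Aars (chr8:111033709-111033757, gene on the plus strand): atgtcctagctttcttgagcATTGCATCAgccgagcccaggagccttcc
Gars (chr6:55037950-55037998, gene on the plus strand): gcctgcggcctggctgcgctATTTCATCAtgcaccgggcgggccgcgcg
Pycr1 (chr11:120643823-120643871, gene on the minus strand): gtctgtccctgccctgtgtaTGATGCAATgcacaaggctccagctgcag

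Genes of ER export and Golgi return traffic were more often higher than lower at 25 mM. Kdelr3, a receptor that returns escaped ER proteins from the Golgi, had the smallest p of all genes. It was at 11.2, 11.3 and 13.4 CPM in the 5.5 mM libraries and 49.7 to 65.3 (median 54.6) CPM at 25 mM (2.23 ± 0.13, adjusted p = 1.54e-05), and it was also called within the first batch alone (2.30, adjusted p = 0.00497). Here replicate 3 was as low as replicate 1. Sec16b, a scaffold of ER exit sites, was at 11.7, 24.6 and 16.1 CPM and 60.2 to 73.9 (median 67.3) CPM (1.98 ± 0.20, adjusted p = 0.000117). Copb2, a coat subunit of COPI vesicles, was at 147, 247 and 254 CPM and 414 to 648 (median 492) CPM (1.14 ± 0.16, adjusted p = 0.000508). Of 87 members of the COPII and ER-to-Golgi list, 43 were higher and 7 lower (49.4% and 8.05%), with a median of 0.57. Stable were 14 higher members, among them the COPII coat genes Sec13 (0.90), Sec23a (1.36) and Sec31a (1.11) and the small GTPase Sar1a (0.80) that starts coat assembly, and 1 lower member, Use1. Use1, a SNARE for retrograde fusion with the ER, was at 154, 53.6 and 212 CPM at 5.5 mM and 28.3 to 38.6 (median 35.3) CPM at 25 mM (−2.0 ± 0.27, adjusted p = 0.000467). Sec24d, a cargo adaptor of COPII, and Golph3, a Golgi lipid-binding protein, showed larger rises, but their calls depended on single libraries. Sec24d was at 28.3, 105 and 8.20 CPM at 5.5 mM and 183 to 221 (median 206) CPM at 25 mM. It rose by 2.29 ± 0.58 (adjusted p = 0.00733). The rise was 2.03 without replicate 1 (adjusted p = 0.0381) and 1.52 without replicate 5 (adjusted p = 0.016). Leaving out any single library at 25 mM also lost this call. Golph3 was at 28.4, 126 and 19.0 CPM at 5.5 mM and 223 to 320 (median 256) CPM at 25 mM. It rose by 2.26 ± 0.50 (adjusted p = 0.00409). The rise was 1.94 without replicate 1 (adjusted p = 0.021) and 1.62 without replicate 5 (adjusted p = 0.0205). Over the whole list the median stood at −0.63, −0.39 and −0.61 relative to the 25 mM mean in replicates 1, 3 and 5. Leaving out replicate 1 left 21 higher and 3 lower members and leaving out replicate 5 left 18 and 1, whereas 55 and 10 were called without replicate 3.

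Targets of the unfolded protein response were more often higher than lower, while the chaperone Hspa5 did not pass the test. Of 57 members tested, 26 were higher and 1 lower (45.6% and 1.75%), with a median of 0.53. Without replicate 1 or replicate 5 at 5.5 mM, 8 were higher and 0 lower by edgeR in either case, with 5 and 1 lower at an unadjusted p under 0.05, and DESeq2's Wald test on all 11 libraries called 34 and 3. The 4 stable members were Kdelr3, the ER prolyl isomerase Fkbp14 (1.23 ± 0.14, adjusted p = 0.000289), the ubiquitin-like modifier Ufm1 (0.85 ± 0.14, adjusted p = 0.00102) and the oligosaccharyltransferase subunit Ostc (0.78 ± 0.14, adjusted p = 0.00135). Xbp1, the transcription factor of the pathway, was at 208, 274 and 103 CPM and 315 to 346 (median 332) CPM. It passed with all 11 libraries (0.85 ± 0.22, adjusted p = 0.008), but no longer passed when any single library other than 5.5 mM replicate 3 was left out (adjusted p = 0.0276 without replicate 1 and 0.0271 without replicate 5). Hspa5, the ER chaperone BiP, was at 1307, 1941 and 3259.5 CPM at 5.5 mM and 1977 to 3187 (median 2446) CPM at 25 mM. The 25 mM range lay within that of the 5.5 mM libraries and the test was not passed (0.15 ± 0.16, adjusted p = 0.428). P4hb, a protein disulfide isomerase, was at 1735, 1709.7 and 1703 CPM and 2184 to 3159 (median 2529) CPM (0.59 ± 0.13), with an adjusted p of 0.00422 that became 0.0125 without replicate 1 and 0.0264 without replicate 5, and it was also lost without 25 mM replicate 2. The single lower member was Calr, the calcium-binding chaperone calreticulin, at 2776, 2218 and 6242 CPM and 1694 to 2230.5 (median 1951) CPM (−0.90 ± 0.22, adjusted p = 0.00676). Without replicate 5, whose level was highest, its change was −0.33 (adjusted p = 0.125), and leaving out any 25 mM library except replicate 2 also lost the call.

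The ER stress response element (ERSE), which joins a site for NF-Y to one for ATF6 and was searched as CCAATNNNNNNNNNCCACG on both strands, was found in the promoters of 9 of 47 members (19.1%), in 0.167% of tested genes and in 0.137% of the promoter table. This list, too, was written from general knowledge of the pathway, so the share describes the list and is no evidence on the response to glucose. The stretches of 4 members are shown with the element in capitals because their mRNAs differed in direction. Pdia6, a disulfide isomerase (0.77, adjusted p = 0.00494), and Syvn1, the ER ubiquitin ligase Hrd1 (0.67, adjusted p = 0.00224), rose, Calr fell, and Hspa5 did not pass the test.
Pdia6 (chr12:17266471-17266529, gene on the plus strand): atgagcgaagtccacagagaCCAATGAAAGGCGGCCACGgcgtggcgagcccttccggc
Syvn1 (chr19:6046512-6046570, gene on the plus strand): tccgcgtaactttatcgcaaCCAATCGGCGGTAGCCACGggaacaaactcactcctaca
Hspa5 (chr2:34772005-34772063, gene on the plus strand): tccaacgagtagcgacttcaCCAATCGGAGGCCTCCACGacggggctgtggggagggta
Calr (chr8:84847055-84847113, gene on the minus strand): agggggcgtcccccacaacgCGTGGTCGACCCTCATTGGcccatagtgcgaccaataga

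**Figure D3:**
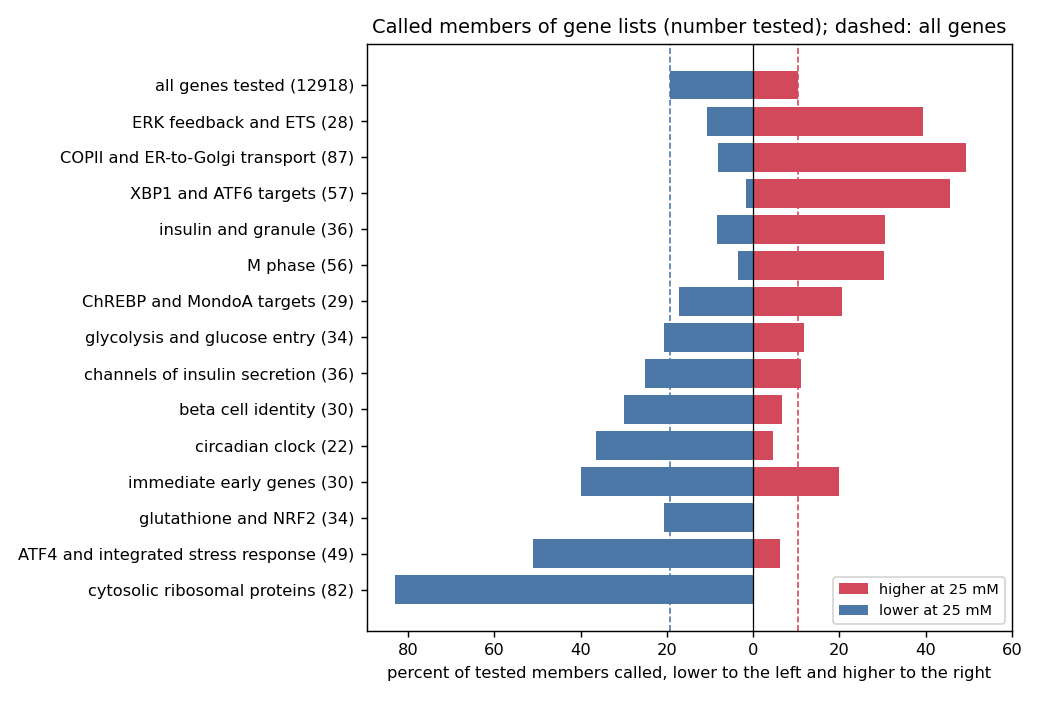
Percent of the tested members of each gene list that were called lower (blue, to the left) or higher (red, to the right) at 25 mM, with the number tested in parentheses and dashed lines at the 19.2% and 10.4% of all genes. ER-to-Golgi transport, XBP1 and ATF6 targets and ERK feedback extend beyond the line for higher genes, and ATF4 targets and cytosolic ribosomal proteins beyond the line for lower genes.

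The insulin mRNAs themselves did not pass the test, and the groups overlapped. Ins1 and Ins2, from which mice make insulin, together took 8.08%, 6.51% and 4.40% of the counts in replicates 1, 3 and 5 at 5.5 mM (mean 6.33 ± 1.85, SD, n = 3) and 3.98% to 6.51% at 25 mM (mean 5.38 ± 0.920, SD, n = 8). The difference of −0.947 percentage points gave p = 0.267 in a two-sided exact permutation test over the 11 libraries, whose smallest possible p is 0.00606. Within the first batch the difference was −1.27 points (p = 0.133, exact permutation test, smallest possible 0.0667), and the second batch holds a single library at 5.5 mM. Without replicate 5, the lowest 5.5 mM library, the difference was −1.91 points (p = 0.0222 by the exact permutation test, the smallest possible). With the 5 left-out libraries at 5.5 mM added, the direction turned, to 2.76 points for the share (p = 0.0347, exact permutation test) and to log2 changes of 0.60 for Ins1 and 1.01 for Ins2. As single genes, Ins1 was at 18245, 12777 and 13805 CPM and 7971 to 13785 (median 11088) CPM (−0.42 ± 0.16, adjusted p = 0.0473), and Ins2 was at 61260.4, 47817 and 39715 CPM and 33002 to 49478 (median 41828) CPM (−0.18 ± 0.15, adjusted p = 0.345). Ins1 passed the threshold only without replicate 3 at 5.5 mM (−0.52, adjusted p = 0.00981).

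Around insulin, mRNAs of granule proteins changed individually. Scgn encodes secretagogin, a calcium sensor of insulin exocytosis. It was at 325, 311 and 314 CPM at 5.5 mM and 142 to 189 (median 162) CPM at 25 mM, and replicate 3 lay as far from the 25 mM range as the other 5.5 mM libraries. The change of Scgn was −0.96 ± 0.12 (adjusted p = 0.000308). Vgf, a secreted granin-like peptide precursor of dense-core granules, was at 129, 129.9 and 130.3 CPM and 199 to 351 (median 289.9) CPM (1.14 ± 0.16, adjusted p = 0.000566). Pam, which amidates peptide hormones, was at 218, 377 and 321 CPM and 622 to 788 (median 715) CPM (1.23 ± 0.17, adjusted p = 0.000515). Erp44, which retains disulfide-forming enzymes in the early secretory pathway, was at 72.0, 124 and 88.2 CPM and 171 to 272 (median 216) CPM (1.15 ± 0.18, adjusted p = 0.000984). All 4 genes were stable. The directions for Scgn (0.026) and Pam (−0.16) turned when the 5 left-out libraries at 5.5 mM were added, and neither was then called. Iapp, the amyloid peptide co-secreted with insulin, was at 14626, 16163 and 9817 CPM and 19387 to 28102 (median 21541) CPM; its rise of 0.73 ± 0.19 (adjusted p = 0.00949) was lost without replicate 5 at 5.5 mM (0.41, adjusted p = 0.0816) and without any other single library except replicate 3. Ttr, the thyroxine carrier transthyretin that β cells also make, was at 2613, 2206 and 2256 CPM and 4368 to 6869.7 (median 5485) CPM (1.20 ± 0.16, adjusted p = 0.000412) and was stable. Of 36 granule and secretion genes tested, 11 were higher and 3 lower (30.6% and 8.33%), with a median of 0.36, and 4 and 1 were stable. Besides Scgn, the lower members were Pcsk1n (−1.37), an inhibitor of the prohormone convertase PC1/3, and Ucn3 (−0.86), a β cell hormone, and the higher ones included Pcsk1 (1.88), which encodes PC1/3. The granule members Chga (−0.48), Chgb (−0.03) and Cpe (−0.14) did not pass.

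Among the other genes whose translation the study followed up in these cells, with its controls, only Igf2 passed. Ucn3, a β cell marker that the study found similar in both conditions by qPCR, was called lower here, as given above, but was not stable. Slc2a2, which carries glucose into rodent β cells, was at 44.8, 113 and 54.7 CPM and 72.2 to 97.8 (median 85.7) CPM (0.30 ± 0.24, adjusted p = 0.304). Slc30a8, the zinc transporter of the granule, was at 237, 447 and 354 CPM and 384 to 449 (median 429) CPM (0.31 ± 0.17, adjusted p = 0.131). In both, replicate 3 was the highest 5.5 mM library, and without it Slc2a2 (0.82, adjusted p = 0.000124) and Slc30a8 (0.57, adjusted p = 0.00228) were higher at 25 mM. Pfkfb3, the kinase that makes fructose 2,6-bisphosphate, stood far higher in replicate 3 than in the other 5.5 mM libraries, with 0.406, 7.00 and 0.265 CPM at 5.5 mM and 7.49 to 10.7 (median 9.80) CPM at 25 mM (1.89 ± 0.66, adjusted p = 0.0302). Vps41, a subunit of the HOPS tethering complex, was at 80.5, 98.8 and 70.1 CPM and 82.8 to 111 (median 97.2) CPM (adjusted p = 0.21). Idh2, the mitochondrial isocitrate dehydrogenase, was at 246, 227 and 121 CPM and 156 to 172 (median 164) CPM (adjusted p = 0.327); without replicate 5 at 5.5 mM it was lower at 25 mM (−0.50, adjusted p = 0.00682). Igf2, the fetal insulin-like growth factor, was at 39.5, 121 and 8.29 CPM and 70.2 to 234 (median 159) CPM, overlapping between groups (1.95 ± 0.46, adjusted p = 0.00532), and it was not called without replicate 1 or replicate 5 at 5.5 mM (adjusted p = 0.0299 and 0.029), nor without 25 mM replicate 2, 3 or 8. The cytoskeletal controls Actb (−0.38 ± 0.14, adjusted p = 0.0406) and Tubg1 (−0.13 ± 0.13, adjusted p = 0.438) did not pass, although Actb was lower without replicate 3 (−0.52, adjusted p = 0.000706).

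β cell identity genes were called in both directions. Gipr, the receptor of the incretin GIP, was at 110.4, 47.7 and 115 CPM at 5.5 mM and 20.8 to 36.5 (median 26.7) CPM at 25 mM (−1.68 ± 0.23, adjusted p = 0.000544). Trpm5, a calcium-gated cation channel, was at 145, 103 and 160.3 CPM and 58.8 to 79.1 (median 67.8) CPM (−1.01 ± 0.15, adjusted p = 0.000651). Glis3, a zinc finger factor that binds the insulin promoter, was at 19.4, 46.4 and 22.7 CPM and 80.5 to 106 (median 87.5) CPM (1.60 ± 0.25, adjusted p = 0.000851). The first pair fell and Glis3 rose, and all 3 were stable. Pax6, an endocrine transcription factor, was at 871, 612 and 1151 CPM and 460.4 to 556 (median 491) CPM (−0.84 ± 0.14, adjusted p = 0.00113), and was not called without replicate 5 at 5.5 mM (adjusted p = 0.0119). Of 30 members tested, 2 were higher, Glis3 and the glucose-6-phosphatase G6pc2 (0.73), and 9 lower (6.67% and 30.0%, against 10.4% and 19.2% of all genes), with a median of −0.20. Without replicate 5 at 5.5 mM the counts were 1 and 2. Pdx1 (−0.029 ± 0.13), Neurod1 (−0.34 ± 0.22) and Mafa (−0.65 ± 0.18, adjusted p = 0.011), which drive insulin transcription, did not pass the test. Among channels and calcium stores of secretion, 4 of 36 were higher and 9 lower (11.1% and 25.0%, against 10.4% and 19.2% of all genes). Of these, 1 and 3 were stable. Without replicate 1 at 5.5 mM the counts were 3 and 4, and without replicate 5 they were 2 and 3. Ryr2, the calcium release channel of the ER, was at 1.89, 2.02 and 2.38 CPM and 9.04 to 11.0 (median 9.95) CPM (2.24 ± 0.14, adjusted p = 1.93e-05) and was also called within the first batch alone (2.29, adjusted p = 0.00888). With the 5 left-out libraries its direction turned (−1.68). Itpr2, an inositol trisphosphate receptor of the same store, was at 27.7, 13.1 and 44.2 CPM and 6.33 to 10.2 (median 8.99) CPM (−1.74 ± 0.22, adjusted p = 0.000385), and Cacna1e, the pore subunit of R-type calcium channels, was at 7.17, 4.40 and 6.17 CPM and 1.60 to 2.77 (median 2.26) CPM (−1.44 ± 0.19, adjusted p = 0.000467).

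A few markers of other islet or pancreatic cells were detected above 1 CPM, and most were not. Gcg, the glucagon gene, was at 70.7, 148 and 61.7 CPM at 5.5 mM and 174 to 321 (median 223) CPM at 25 mM (1.36 ± 0.29, adjusted p = 0.00317), and was not called without replicate 1 or without replicate 5 at 5.5 mM (adjusted p = 0.0195 and 0.0301). Spp1, the secreted matrix protein osteopontin, was at 5.14, 9.97 and 8.56 CPM and 24.4 to 72.9 (median 52.7) CPM (2.38 ± 0.26, adjusted p = 0.000194) and was stable. Its 25 mM libraries split by batch, at 24.4 to 37.5 CPM in the first and 68.0 to 72.9 CPM in the second. The 7 acinar markers of the fixed marker list were at or below 0.221 CPM in all libraries. In bulk RNA, a larger share of cells that express a gene and more mRNA per cell cannot be told apart.

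Among metabolic genes, single members of several lists changed. Sord, the sorbitol dehydrogenase of the polyol pathway, was at 107, 54.8 and 119 CPM at 5.5 mM and 20.9 to 29.3 (median 26.3) CPM at 25 mM (−1.85 ± 0.19, adjusted p = 0.000121). Eno3, an enolase, was at 47.7, 12.1 and 58.2 CPM and 5.08 to 7.74 (median 6.09) CPM (−2.63 ± 0.32, adjusted p = 0.000324), and Aldoc, an aldolase, at 26.4, 15.8 and 21.2 CPM and 9.09 to 10.5 (median 9.62) CPM (−1.11 ± 0.14, adjusted p = 0.000385). All 3 fell and were stable. Over glycolysis and glucose entry, 4 of 34 members were higher and 7 lower (11.8% and 20.6%), close to the background of all genes, and Gapdh (−0.03 ± 0.12) and Pkm (−0.63 ± 0.18, adjusted p = 0.0146) did not pass. The TCA cycle, with pyruvate entry, had 3 higher and 2 lower of 44 members (6.82% and 4.55%). For cholesterol synthesis the counts were 3 and 5 of 33 (9.09% and 15.2%). Both lists lay below the 10.4% and 19.2% of all genes. Hmgcs1, the synthase at the head of cholesterol synthesis, did not pass (0.32 ± 0.20, adjusted p = 0.177). The glutathione S-transferases Gstm1 and Gstt1 fell. Gstm1 was at 419, 199 and 261 CPM and 54.2 to 95.0 (median 63.8) CPM (−2.05 ± 0.18, adjusted p = 8.45e-05), and Gstt1 at 36.0, 14.6 and 31.6 CPM and 4.97 to 10.6 (median 7.77) CPM (−1.84 ± 0.23, adjusted p = 0.000366). In the list of glutathione and NRF2 genes 0 of 34 were higher by edgeR and 7 lower (0% and 20.6%, against 10.4% and 19.2% of all genes), while 7 were higher at an unadjusted p under 0.05 and DESeq2's Wald test called 2 higher. Hmox1 (−0.14 ± 0.27) and Nqo1 (−0.40 ± 0.19), the usual NRF2 markers, did not pass. Of the clock genes, 1 of 22 was higher and 8 lower (4.55% and 36.4%). Among the stable ones were Dbp at 42.0, 20.2 and 19.2 CPM and 8.70 to 11.0 (median 10.4) CPM (−1.36 ± 0.19) and Ciart (−2.52 ± 0.30), both lower.

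Genes outside these lists were also among the 12 highest and 12 lowest changes at above-median level. Hapln1, a link protein of hyaluronan matrix, was at 3.31, 12.3 and 6.00 CPM at 5.5 mM and 53.3 to 91.0 (median 63.9) CPM at 25 mM (3.15 ± 0.35, adjusted p = 0.000207). Oxtr, the oxytocin receptor, was at 19.5, 31.4 and 18.6 CPM and 75.2 to 153 (median 105) CPM (2.25 ± 0.21, adjusted p = 8.45e-05). Dclk1, a microtubule-associated kinase (2.25 ± 0.20), and Kcnh1, a voltage-gated potassium channel (2.43 ± 0.26), rose as well. On the lower side, Wnt4, a secreted Wnt ligand, was at 760.1, 261 and 1030.4 CPM and 112 to 173 (median 127) CPM (−2.34 ± 0.28, adjusted p = 0.000324). Zbtb20, a zinc finger repressor, was at 351, 121 and 1425 CPM and 47.0 to 115 (median 82.3) CPM (−2.71 ± 0.37), and Tenm2, a synaptic adhesion protein, at 56.7, 23.1 and 218 CPM and 9.18 to 16.1 (median 13.6) CPM (−2.71 ± 0.36). All of these were stable, and for the last pair replicate 5 was well above replicates 1 and 3. The remaining genes with changes of this size were Stk35 (2.48), a kinase, and Ell2 (2.38), an elongation factor, on the higher side, and Rp9 (−2.57), Pdgfa (−2.42), a platelet-derived growth factor chain, Cacng4 (−2.34), a calcium channel subunit, 2310033P09Rik (−2.18) and the forkhead factor Foxn3 (−2.25) on the lower. Of these, Ell2, Rp9, Pdgfa and 2310033P09Rik were called with all 11 libraries but were not stable. Among the most abundant called mRNAs, the elongation factors Eef1a1 (−0.60) and Eef2 (−0.81) and the chaperone Hsp90ab1 (−1.03) were lower and the G protein subunit Gng12 (1.34) was higher, and none of these 4 was stable. Eef1a1 turned to 0.30 with the 5 left-out libraries added.

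Cytosolic ribosomal protein genes were lower as a block, but mainly against replicates 1 and 5. Of 82 members tested, 0 were higher and 68 lower by edgeR (0% and 82.9%), with a median of −1.09. No member was higher at an unadjusted p under 0.05 or under DESeq2's Wald test either. The summed level of the list was 28924 to 69343 CPM at 5.5 mM, against 19965 to 25886 CPM at 25 mM. Rps7, of the small subunit, was at 651, 341 and 905 CPM and 202 to 297 (median 269) CPM (−1.27 ± 0.19, adjusted p = 0.000771). Replicate 3 lay just above the 25 mM range. For the median member, replicates 1, 3 and 5 stood 1.38, 0.30 and 1.39 above the 25 mM mean on the log2 scale, and 5 of the 68 calls were stable, among them Rpl21 (−1.81), Rpl5 (−1.48) and Rps7. Ribosomal protein genes have many near-identical processed copies in the genome, so their counts depend on how reads with several matches were treated. Of 49 translation factors, 5 were higher and 17 lower (10.2% and 34.7%, against 10.4% and 19.2% of all genes), but 1 and 4 without replicate 1 and, by edgeR, 0 and 4 without replicate 5, with 10 higher at an unadjusted p under 0.05. The smallest p was that of Eif3f, a subunit of the initiation factor eIF3, at 641, 240.4 and 636 CPM and 118 to 179 (median 155) CPM (−1.69 ± 0.23, adjusted p = 0.000541). Mitochondrial ribosomal proteins had 1 higher and 25 lower members of 77 (1.30% and 32.5%), of which none was stable. By edgeR 0 and 3 were called without replicate 1 and 0 and 0 without replicate 5, with 35 and 32 lower at an unadjusted p under 0.05. Nuclear-encoded respiratory chain genes had 4 higher and 20 lower of 77 (5.19% and 26%), with 1 stable. The counts were 1 and 1 without replicate 1 and 0 and 1 without replicate 5, with 6 higher and 21 lower at an unadjusted p under 0.05 in the latter. The ferritin light chain Ftl1 was at 3401, 1133 and 3571 CPM and 411 to 883 (median 709.7) CPM (−1.95 ± 0.29, adjusted p = 0.000681), and was not called without replicate 5 at 5.5 mM (adjusted p = 0.0107).

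**Figure D4:**
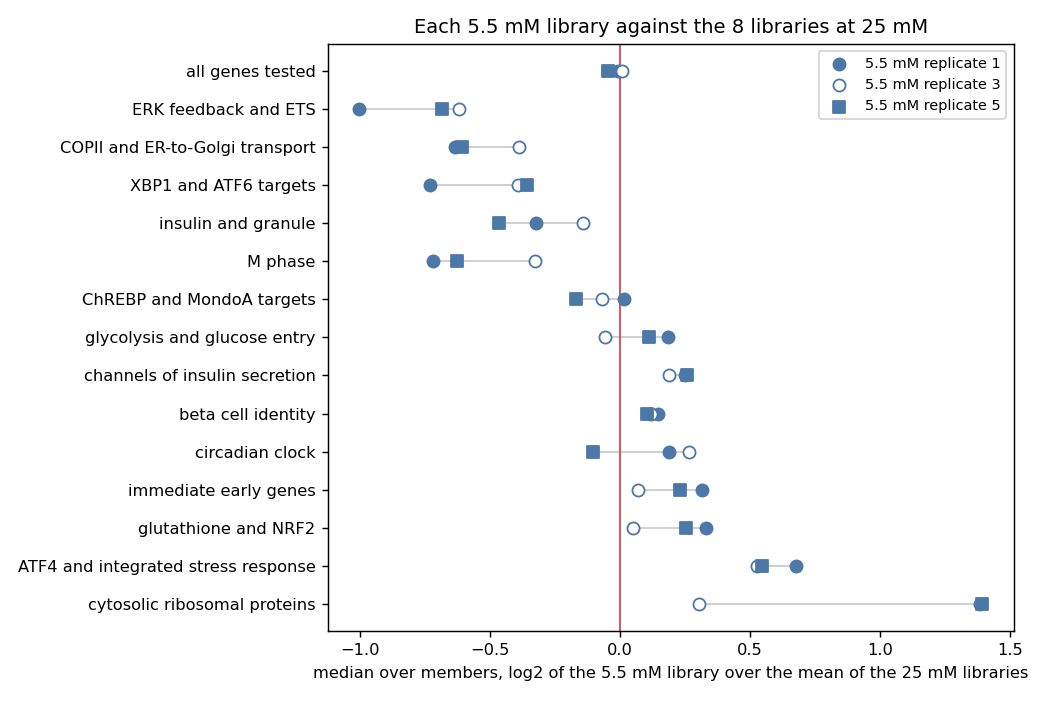
Median over the members of each gene list of the log2 ratio of 1 library at 5.5 mM to the mean of the 8 libraries at 25 mM (red line at 0), for replicates 1, 3 and 5. Ribosomal proteins stand at 1.38 and 1.39 in replicates 1 and 5 but at 0.30 in replicate 3, whereas the 3 libraries lie close together for ATF4 targets and β cell identity.

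Calls among M phase genes needed both replicates 1 and 5 at 5.5 mM, although the median change of the list stayed at 0.44 and 0.38 without them. With all 11 libraries, 17 of 56 M phase genes were higher and 2 lower (30.4% and 3.57%, median 0.48). Ccna2, cyclin A2, was at 107, 184 and 116 CPM and 218 to 335 (median 264) CPM (0.95 ± 0.19), with an adjusted p of 0.00232 that became 0.0146 without replicate 1 and 0.0215 without replicate 5. Plk1, the polo-like kinase of mitosis, was at 35.4, 57.0 and 14.8 CPM and 66.0 to 81.8 (median 76.4) CPM (1.22 ± 0.27), with an adjusted p of 0.00361 that became 0.0201 and 0.0117 in the same tests. Without replicate 1 or without replicate 5, 0 M phase members passed in edgeR, with 34 and 33 higher at an unadjusted p under 0.05. Without replicate 3 the counts were 34 and 4. DESeq2's Wald test on all 11 libraries called 32 and 2. Of all genes tested, 10.4% were higher and 19.2% lower. Chromatin organization genes (2 higher and 24 lower of 88, 2.27% and 27.3%) held no stable member, and neither did the proteasome (6 and 3 of 39, 15.4% and 7.69%). Genes of ribosome biogenesis (5 and 4 of 56, 8.93% and 7.14%), DNA replication (8 and 7 of 56, 14.3% and 12.5%), splicing regulation (3 and 12 of 59, 5.08% and 20.3%) and cytosolic chaperones (5 and 2 of 31, 16.1% and 6.45%) each held 1 stable member. For the chaperones it was Bag3, a partner of Hsp70, at 39.4, 33.5 and 37.4 CPM and 62.7 to 85.1 (median 72.4) CPM (0.97 ± 0.13, adjusted p = 0.000409). Of 20 disallowed genes, which β cells normally keep silent, 12 had enough counts to be tested. Oat (1.86) and Cxcl12 (1.58) were higher (16.7%) and Lmo4 (−1.86) lower (8.33%), none of them stable, and Cxcl12 overlapped between the groups. Of 34 replication-dependent histone genes 0 were higher by edgeR or by DESeq2's Wald test, with 1 at an unadjusted p under 0.05, and 3 were lower by edgeR (8.82%). Of 8 mitochondrially encoded genes 0 passed in edgeR (median 0.86), with 6 higher at an unadjusted p under 0.05 and 4 called higher by DESeq2's Wald test. Their summed level was 11412 to 28158 CPM at 5.5 mM, against 27399 to 62535 CPM at 25 mM.

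The span of a gene on the genome, a property not used in choosing libraries, moved with the difference between the groups. Spans were matched for 12640 of the 12918 genes (GRCm38.p6) and split into 5 bins of 2528 genes. The median log2 fold change was −0.35 in the shortest bin (up to 8396 bases), −0.14, 0.036 and 0.16 in the next bins and 0.28 in the longest (from 72978 bases). In the shortest bin 31.5% of genes were lower and 6.05% higher at 25 mM, and in the longest 12.6% and 14.0%. Relative to the 25 mM mean, the median of the shortest bin was 0.51 in replicate 1, 0.11 in replicate 3 and 0.38 in replicate 5, and that of the longest −0.52, −0.059 and −0.37. The 3 libraries shared the direction, and it was weakest in replicate 3. Ribosomal protein genes are short, and the part of gene span in their difference, or in that of any other list, was not tested.

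**Figure D5:**
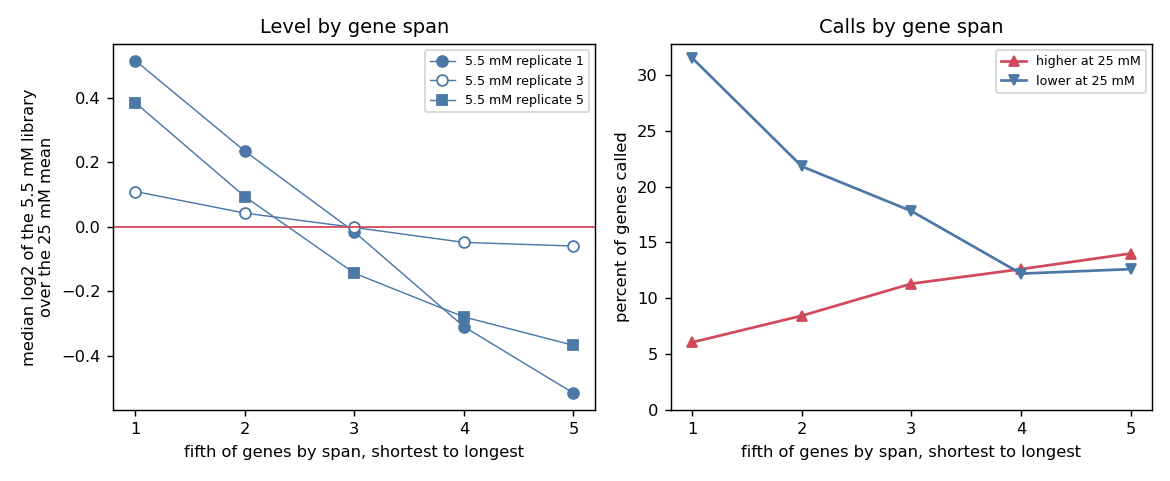
Genes in 5 bins of equal size by genomic span, shortest to longest. The left panel gives the median log2 ratio of each 5.5 mM library to the mean at 25 mM, falling from 0.51 to −0.52 in replicate 1 and from 0.11 to −0.059 in replicate 3. The right panel gives the percent of genes called higher or lower at 25 mM, with lower calls falling from 31.5% to 12.6%.

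Ribosome-protected footprints (RPFs) of the same 11 cultures gave a second readout of the named genes, as values without a test. RPF totals were 625187 to 7012999 counts at 5.5 mM and 363569 to 3283379 at 25 mM, so single values are less precise than those of RNA. The RPF library of 25 mM replicate 8 lay outside the range of the other 7 at 25 mM in genes such as Dusp6. Ranges are therefore given for those 7, a choice made after seeing the data. The value of replicate 8 is given beside them except for Ftl1, Igf2, Ins2 and Hspa5. Leaving it out decides most of the picture. Footprint ranges were compared for 140 called genes that the naming rule gave. With all 8 libraries at 25 mM, they stood apart in the direction of the mRNA for 13 and overlapped for 127. Without replicate 8 they stood apart in that direction for 50, in the opposite direction for 1, and overlapped for 89. The same shares over all genes were not computed, so these counts do not set the named genes apart from other genes. Dusp6 footprints were at 8.03 to 12.9 CPM in low glucose and 76.0 to 118 CPM in high glucose, with 16.9 CPM in replicate 8. Kdelr3 footprints were at 8.43 to 11.2 CPM in low glucose and 42.5 to 60.5 CPM in high glucose, with 15.5 CPM in replicate 8. Those of Vgf were at 234 to 299 CPM in low glucose and 447 to 835 CPM in high glucose (324 CPM in replicate 8), and those of Wnt4 at 84.7 to 86.8 CPM in low glucose and 33.3 to 67.4 CPM in high glucose (62.1 CPM in replicate 8). These 4 genes stood apart with all 8 libraries. Etv5 footprints were at 3.21 to 9.20 CPM in low glucose and 46.6 to 70.7 CPM in high glucose (8.46 CPM in replicate 8), and those of Txnip at 40.0 to 49.8 CPM in low glucose and 84.3 to 145 CPM in high glucose (46.5 CPM in replicate 8). Trib3 footprints were at 24.2 to 40.2 CPM in low glucose and 3.90 to 11.1 CPM in high glucose (35.3 CPM in replicate 8), and those of Scgn at 319.7 to 434 CPM in low glucose and 134 to 294 CPM in high glucose (349.8 CPM in replicate 8). For these 4 the value of replicate 8 lay inside the 5.5 mM range. Ddit3 overlapped at 6.43 to 13.7 CPM in low glucose and 1.75 to 7.86 CPM in high glucose, with 22.6 CPM in replicate 8, above all 5.5 mM libraries. Overlap was also found for mRNAs that were called lower. Use1 footprints were at 27.3 to 37.6 CPM in low glucose and 26.2 to 41.3 CPM in high glucose (26.8 CPM in replicate 8). Those of Eif3f were at 154 to 182 CPM in low glucose and 128 to 194 CPM in high glucose. Replicate 8 was at 106 CPM for Eif3f, below both ranges. Ftl1 footprints were at 10.2 to 23.3 CPM in low glucose and 7.86 to 27.2 CPM in high glucose. Igf2, whose mRNA was called higher, had footprints at 709 to 789.8 CPM in low glucose and 461 to 748 CPM in high glucose. For Ins2 (84644 to 90095 CPM in low glucose and 59901 to 104420.3 CPM in high glucose) and Hspa5 (5051 to 5909.7 CPM in low glucose and 4747 to 6202 CPM in high glucose) the 25 mM range contained that at 5.5 mM.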

How the data were processed

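RNA and RPF libraries of MIN6 cells were compared at 25 versus 5.5 mM glucose. The RNA and RPF tables hold raw counts per gene as deposited by the authors, who used the XPRESSyourself pipeline. After alignment to the mouse genome and removal of ribosomal RNA and PCR duplicates, they counted reads over either the exons or a shortened coding sequence, always of a gene's longest transcript. Which of these served which library type, and the versions of aligner and counter, are not given in the sources used here. RNA libraries came from a stranded kit after polyA enrichment, and the submitters' processing notes name DESeq2. Removing duplicates without molecular identifiers can compress the counts of highly expressed genes.

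Samples were grouped by the labels. The software was R 4.3.3 (DESeq2 1.42.0, edgeR 4.0.16, limma 3.58.1) and Python 3.11.15 (matplotlib 3.10.9, numpy 2.4.6, pandas 2.3.3). RNA libraries were scaled by TMM, filtered with filterByExpr and tested by quasi-likelihood in edgeR with a batch term, Benjamini-Hochberg adjustment over all genes tested and a threshold of 0.01. SEs were taken from the F statistic. Distances of single libraries used log2 CPM with a pseudocount of 0.5. The insulin share was compared by an exact permutation test, called under 0.05. Tests were tried on simulated counts. Symbols were matched for 21826 of 21945 genes. Promoters and gene spans are from RefSeq (GRCm38.p6), and spans replaced the planned coding lengths, which were not used here.

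Libraries and gene lists were chosen with earlier results of these data known. Genes were named if they had the 12 highest or 12 lowest changes among called genes of above-median level with groups apart and the same sign in both batches, if they define a pathway or had one of the 4 smallest p-values among a list's called members, if the study names them, or if they were the 4 most abundant called genes in a direction. Other names were chosen after their values were seen, and some genes that met the rule are not reported here. The p-values measure only the spread between these samples of 1 cell line. Alternatives were scaling by library size or by DESeq2 size factors, dropping the filter or the batch term, a block of replicate numbers, either batch alone, adding the 5 remaining 5.5 mM libraries, omitting single libraries, a Wald test in DESeq2 and a 2-fold minimum. The stable group, list medians under other scalings, gene span and the RPF ranges without 25 mM replicate 8 were chosen after seeing the data.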

Additional observations from a re-analysis of the deposited data

Results flagged for a closer look

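The levels of 88 genes and the insulin share were examined for a single library far from the others among the 8 at 25 mM. Of these 89 sets, 3 held such a library, and chance alone gives about 1 in 20. Use1 was at 28.3 CPM in 25 mM replicate 7, against 33.8 to 38.6 CPM in the other 7 libraries. Trib3 was at 10.7 CPM in replicate 2, against 4.56 to 7.03 CPM in the others, still below all 5.5 mM libraries. Rps7 was at 202 CPM in replicate 1, against 257 to 297 CPM in the others. All 3 genes were also lower at 25 mM when the library in question was left out. The 3 libraries at 5.5 mM are too few for the same examination.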

How the results depend on the processing

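The counts of 1342 higher and 2480 lower genes depended on the samples more than on the scaling. Scaling by library size or DESeq2 size factors and dropping the filter or the batch term gave 1087 to 1437 higher and 2026 to 2561 lower genes. Leaving out each library in turn gave 385 to 4019 higher and 401 to 3883 lower genes, with both extremes from 5.5 mM libraries (replicate 5 and replicate 3). Higher and lower counts were 6 and 0 in the first batch alone, 4060 and 3625 in the second, 2032 and 2998 with all 8 libraries at 5.5 mM, 2735 and 3298 by DESeq2's Wald test, and 668 and 1330 with a 2-fold minimum. With all 8 libraries at 5.5 mM, 2309 of the 3822 genes were called again with the same sign and 422 signs turned; the cause was not tested.

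With the replicate number as a block in place of batch, edgeR called 0 genes in either direction, with 3417 at an unadjusted p under 0.05. Deviations from the group means correlated across genes at 0.379, −0.159 and 0.158 between the 5.5 and 25 mM libraries numbered 1, 3 and 5. For 5.5 mM replicate 1 the correlation was highest with 25 mM replicate 3 (0.555). Batch was left in these deviations, and replicates 1 and 3 share a batch. The correlations therefore cannot decide whether the numbers mark paired cultures. The main test used batch, and pairing was neither shown nor excluded. The block leaves the 3 numbered pairs to carry the comparison.

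The insulin share difference (−0.947 points) was −1.15 on TMM-scaled counts and −1.91 to −0.0709 with single libraries left out, the extremes being those without 5.5 mM replicate 5 (exact permutation p = 0.0222) and replicate 1 (p = 0.956). With all 8 libraries at 5.5 mM it turned to 2.76 (exact permutation p = 0.0347). The cause was not tested.

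Of 88 genes followed, 11 turned with all 8 libraries at 5.5 mM, namely Hspa5 (−0.13), Stc2 (−0.36), Ins1 (0.60), Ins2 (1.01), Scgn (0.026), Pam (−0.16), Idh2 (1.10), Eef1a1 (0.30), Ryr2 (−1.68), Hmgcs1 (−0.43) and Tubg1 (0.58). The second batch alone turned Hspa5 (−0.14) and Idh2 (0.47), and with single libraries left out Hspa5 ranged from −0.037 to 0.38 and Tubg1 from −0.26 to 0.0035, turning without 5.5 mM replicate 1. In the first batch alone 73 of the 88 genes lost their call, and under the block 76. The median of the splicing list changed from −0.076 to 0.016 under library size scaling.

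The low glucose arm rests on 3 libraries, 1 of them near the 25 mM group, and its totals reached 17542565 counts against 33623502 at 25 mM. The comparison with coding length was not run; gene span stood in for it.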

Other observations

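Further genes outside the lists were higher at 25 mM, and the 6 given here were chosen after their values were seen. Pdyn, the precursor of dynorphin peptides, was at 548, 765 and 627 CPM in replicates 1, 3 and 5 at 5.5 mM and 1666 to 2269 (median 2002) CPM at 25 mM (1.63 ± 0.15, edgeR adjusted p = 8.45e-05). Tph1, the first enzyme of serotonin synthesis, was at 36.9, 72.8 and 45.9 CPM and 166 to 292 (median 237) CPM (2.07 ± 0.25, adjusted p = 0.000299). Cckbr, a receptor of gastrin and cholecystokinin, was at 15.5, 13.3 and 13.1 CPM and 39.9 to 62.3 (median 48.8) CPM (1.87 ± 0.17, adjusted p = 8.45e-05). Irs2, the insulin receptor substrate, was at 25.0, 61.4 and 37.2 CPM and 124 to 179 (median 159) CPM (1.86 ± 0.25, adjusted p = 0.000453). Slc17a9, the vesicular nucleotide transporter, was at 13.6, 17.3 and 7.94 CPM and 41.5 to 56.0 (median 52.1) CPM (2.06 ± 0.16, adjusted p = 5.78e-05), and Wipi1, a lipid-binding protein of autophagy, at 85.1, 89.8 and 135 CPM and 261 to 308 (median 275) CPM (1.41 ± 0.13, adjusted p = 8.46e-05). In all 6 genes the 5.5 mM libraries lay below the 25 mM range, and all were called again without each 5.5 mM library in turn.

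On the lower side, Pck2, the mitochondrial phosphoenolpyruvate carboxykinase, was at 284, 130.1 and 303 CPM and 49.5 to 84.7 (median 78.5) CPM (−1.71 ± 0.22, adjusted p = 0.000409). Bax, an effector of mitochondrial cell death, was at 245, 110.4 and 242 CPM and 41.7 to 79.9 (median 61.9) CPM (−1.67 ± 0.23, adjusted p = 0.000515). Lpl, lipoprotein lipase, was at 91.6, 84.2 and 315 CPM and 34.3 to 51.9 (median 46.3) CPM (−1.81 ± 0.26, adjusted p = 0.000638). These 3 genes were likewise apart between the groups and called without each 5.5 mM library.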
